A study of Mus musculus with 9 samples.

Results

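The genes described here encode the proteins of the cytosolic ribosome. They were taken from the array's annotation by symbol, as every symbol that begins with Rpl or Rps followed by a digit, together with Rplp0, Rplp1, Rplp2 and Rpsa, and without the S6 kinases. This gave 68 genes, 44 of the large subunit and 24 of the small subunit, among 8106 genes tested. They were read by 186 cDNA clones of 17207, with 23 genes on 1 clone and 45 on several, and all 68 had values on all 9 arrays. RefSeq lists 91 protein-coding mouse symbols under the same rule, so 23 had no value of their own here, among them Rps27a. Of these, Rps2, Rps14 and Rpl36 stood only on rows that named several symbols, which were left out. RefSeq also lists 309 pseudogenes under the rule, and a spotted cDNA cannot separate a transcript from a near-identical copy.

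The samples were stroma cut by laser from prostate sections of male FVB mice hemizygous for the CR2-TAg transgene, in which regulatory elements of the cryptidin-2 gene (Defcr2) drive SV40 large T antigen in the neuroendocrine cells of the prostate. Both groups carried the transgene. One group of 6 mice was 24 weeks old with invasive tumors, and the other was 10 weeks old with prostate intraepithelial neoplasia (PIN), a lesion still held within the glands. Arrays of 3 PIN mice (replicates 2, 3 and 4) were analysed here. Each array set the Cy5-labeled RNA of 1 mouse against Cy3-labeled RNA pooled from 4 PIN samples, so a value is a log2 ratio to that pool, and a difference is the mean ratio of the invasive arrays minus that of the PIN arrays. Age and tumor stage changed together and cannot be told apart. The PIN samples were measured against a pool that contains them, and the dyes were not swapped. Ratios give no absolute level, so genes were not ranked by abundance. In such bulk samples, fewer cells of a type and less RNA per cell cannot be told apart.

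A ribosome is built from a small subunit, which reads the mRNA, and a large subunit, which joins the amino acids, and each is an assembly of ribosomal RNA and many proteins present in single copies, apart from the acidic stalk proteins. Mammalian ribosomal protein mRNAs share a terminal oligopyrimidine (TOP) tract, a C followed by a run of pyrimidines at the extreme 5′ end, through which mTOR and Larp1 control their translation. Ribosomal protein genes are expressed in all cells, and stromal cells that lay down matrix use many ribosomes.

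The TOP tract lies at the start of transcription, and the annotated start is shown for some members whose values are described further on. RefSeq promoter windows (GRCm38.p6) of 300 bases were matched to 57 of the 68 genes, with 68 windows because 9 genes had several. A run of at least 6 C or T bases that reached within 10 bases of the annotated start was in 35 of the 68 windows (51.5%) and in 29.2% of all 32851 windows. In the 30 bases printed for each gene, the start is the 13th base and the capitals mark that run. With the start counted as base 1, the run of Rpl13a begins at base 3 and that of Rps26 at base 4. A marked run is therefore not in itself a TOP tract. The windows are Rplp2, chr7:141447639-141447668 on the plus strand, Rpl35a, chr16:33056470-33056499 on the plus strand, Rpl13a, chr7:45128728-45128757 on the minus strand, Rps6, chr4:86857350-86857379 on the minus strand, and Rps26, chr10:128626489-128626518 on the minus strand. Rpl35a had 3 windows, and the longest runs in those not printed were of 4 and 5 bases, short of 6. Rps7, chr12:28635936-28635965 on the minus strand, and Rpsa, chr9:120127754-120127783 on the plus strand, are shown as examples of windows that held no such run. The windows of Rplp0, Rpl10, Rpl41, Rpl5, Rpl11 and Rps3, also described further on, held none either and are not printed.
Rplp2: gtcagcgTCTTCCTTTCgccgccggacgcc
Rpl35a: gggcttgCCTTCCTCTTTCCgccatcttgg
Rpl13a: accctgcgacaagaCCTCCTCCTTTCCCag
Rps6: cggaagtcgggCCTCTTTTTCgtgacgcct
Rps26: gggcaagccgccggaTCCTCTTTCgagtct
Rps7: tccggtttccacccacctacttccgctgtc
Rpsa: ggttatttaaggacgtcatttccggccgcc

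The letters CTTTC lay between 10 bases before and 15 after the start on the transcript strand of 14 member windows (20.6%) and of 3.1% of all windows, and on either strand of 22.1% and 6.05%. CCGGAAG, the core bound by ETS-family factors, stood on either strand of 26 member windows (38.2%) and of 8.86% of all windows. CACGTG, the E-box bound by Myc, stood in 8 (11.8%) and in 7.15%. Windows of 1 gene overlap, and a match is a description of the letters only. Rplp1 had no window.

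Across the series, each array held between 17189 and 17206 values. Of the marker lists, 8 of 10 stromal and fibroblast genes were measured and 3 were higher in invasive stroma, with a median difference of 1.05. Of 8 macrophage markers 3 were measured and all 3 were higher, with a median of 2.77, and 6 of 9 measured cell cycle genes were higher, with a median of 1.28. Of 3 measured smooth muscle markers 2 were lower, while none of 3 epithelial markers passed the test. Of 4 measured endothelial markers 1 was higher, with a median of 1.09, and of 2 measured neuroendocrine tumor markers Foxa2 was higher, with a difference of 2.50 (limma adjusted p = 0.0871). The array of PIN replicate 4 stood apart from the other PIN arrays. Over the 68 ribosomal protein genes, its ratios correlated with those of replicates 2 and 3 at r = -0.35 and -0.21, while replicates 2 and 3 correlated at 0.47. Over all clones these values were 0.18, 0.19 and 0.67. They are a description across genes on arrays that share a reference. Epithelial markers had a median of 0.65 on PIN replicate 4 and of -1.32 and -2.39 on replicates 2 and 3. Of these markers Cdh1 differed little (0.25 against 0.16 and 0.15). The part of this in the differences was not tested. Differences of named members that moved by over 1.5 times or changed sign without PIN replicate 4 are given with and without it.

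Taken as means over the invasive arrays, the differences of the ribosomal protein genes lay close together and mostly near 0. The medians of single invasive arrays stood above or below those of the PIN arrays, as described further on. None of the 68 was called higher or lower by limma at an adjusted p under 0.15, against 5.64% of all 8106 genes (457, with 3.75% higher and 1.89% lower). At an adjusted p under 0.05 none was called either, against 0.938% of all genes. The methods name a standard test of 2 samples without saying whether variances were taken as equal, and neither form of it called a member. At an unadjusted p under 0.05 limma called 1 member, Rplp1, against 15% of all genes. The median difference of the 68 genes was -0.05 on the log2 scale, with quartiles of -0.18 and 0.08, and the median of all genes was 0.02. Without PIN replicate 4 the members had a median of -0.01. Of the members, 25 lay above 0 and 43 below, from -0.80 for Rplp1 to 0.56 for Rps7. Of all 8106 genes, 4216 lay above 0. The medians of the large subunit (-0.04, 17 of 44 above 0) and of the small subunit (-0.05, 8 of 24 above 0) were nearly equal.

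Differences were smaller among these genes than over the array, and the errors were similar. The median size of a difference was 0.144 for members and 0.227 for all genes, while the median standard error was 0.22 and 0.24. Differences beyond 0.5 in either direction were found for 2 members (2.94%) and for 1600 of all genes (19.7%). Lists of related genes, described further on, also had few. The shares were 4.26% of mitochondrial ribosomal protein genes, 7.69% of translation factors and 10% of ribosome biogenesis genes. Members are read by more clones than most genes. Among genes with several clones, a difference beyond 0.5 was found for 1 of 45 members (2.22%) and for 420 of 2851 genes (14.7%). Among genes with 1 clone, it was found for 1 of 23 members (4.35%) and for 1180 of 5255 genes (22.5%). Within the genes with several clones the number of clones was not matched, and its part in the contrast was not tested. A p that misses the threshold does not show that a gene was at the same level, so the intervals matter here. The 95% interval of the difference lay within 2-fold in both directions for 64 of 68 members (94.1%) and for 73.0% of all genes. In the same related lists it did so for 95.7%, 92.3% and 90% of the genes, so narrow intervals were not particular to the members. The interval lay within 1.5-fold for 27 of 68 members and for 1614 of all 8106 genes, so for most members it reached beyond 1.5-fold.

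**Figure D1:**
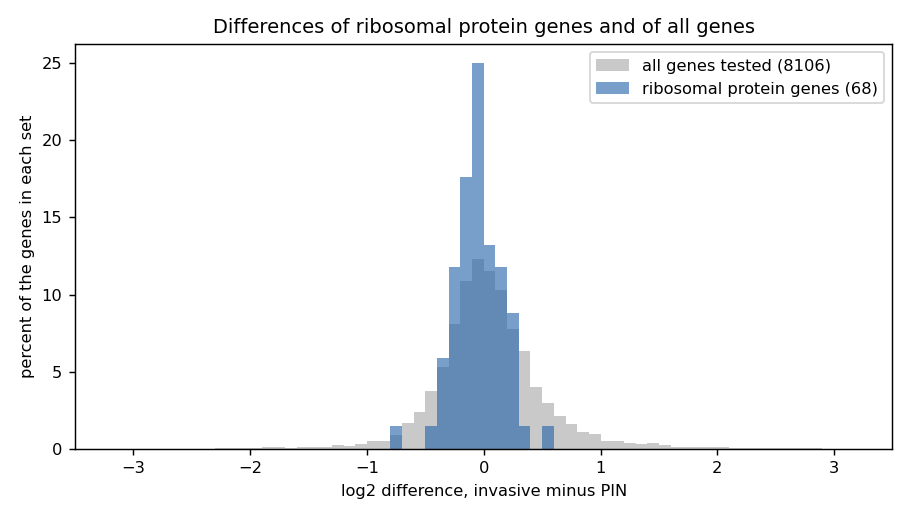
Histogram of the log2 difference, invasive minus PIN, as the percent of genes in each set. The 68 ribosomal protein genes (blue) lie between -0.80 and 0.56, and the 8106 genes tested (gray) spread from -3.06 to 3.31.

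**Figure D2:**
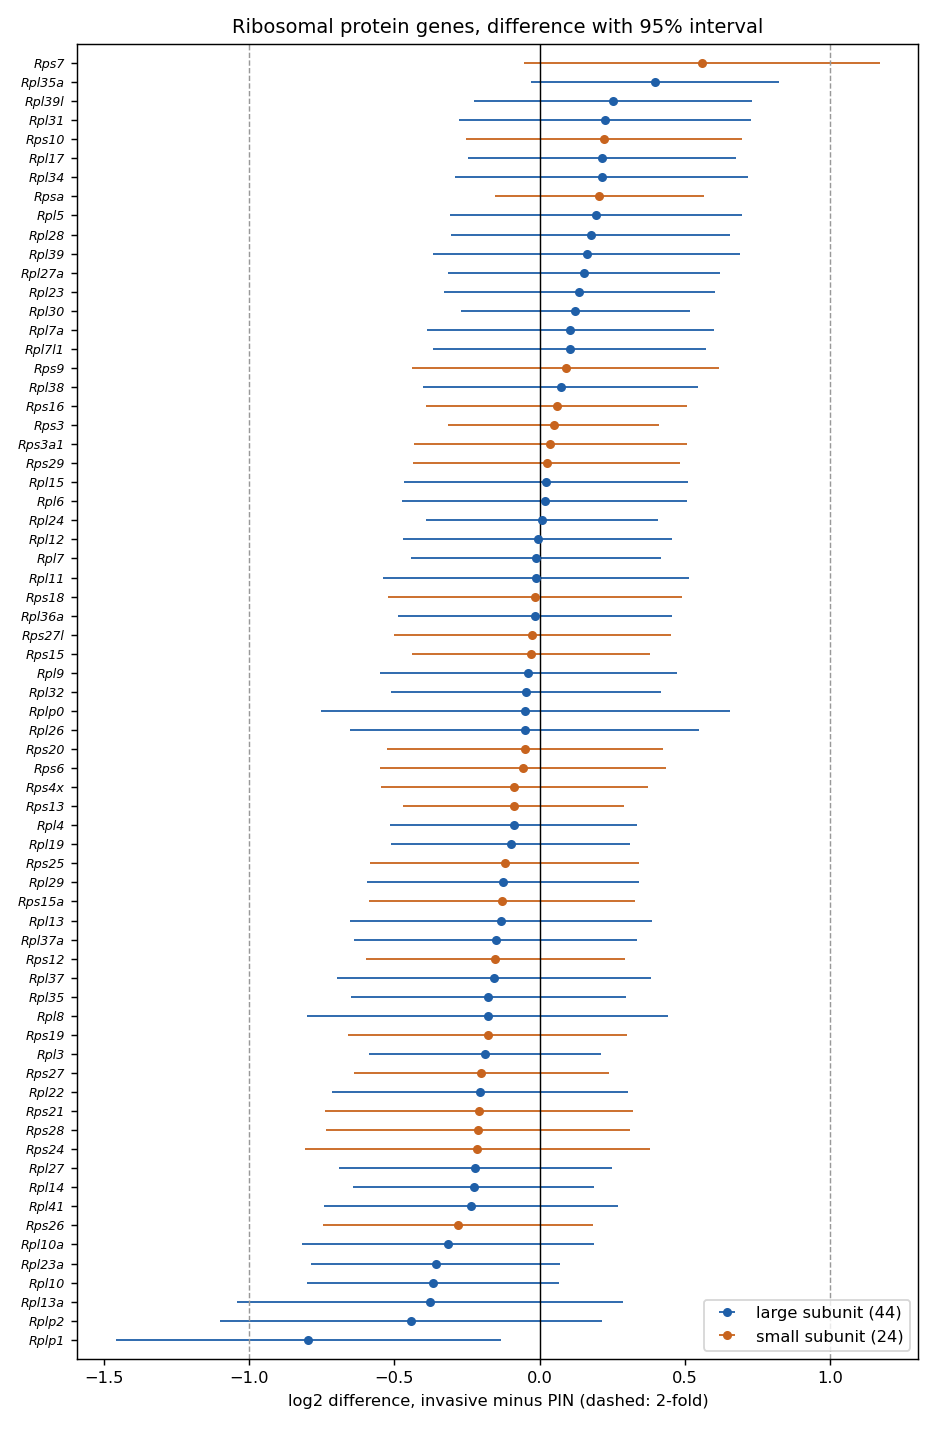
Log2 difference of each of the 68 members, invasive minus PIN, ordered by size, with 95% limma intervals and the subunit in color. Rplp1 at -0.80 and Rps7 at 0.56 are the only members beyond 0.5 in size, and the interval of Rps7 reaches below 0.

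The invasive arrays were not alike. The median log2 ratio over the 68 genes was 0.11, 0.14 and 0.13 on invasive replicates 1, 5 and 6, and -0.28, -0.24 and -0.26 on replicates 2, 3 and 4. The PIN arrays had medians of -0.01, -0.05 and 0.05, inside the range of the invasive arrays. The medians of all genes lay between -0.03 and 0.03 on every array, where the authors' lowess normalization sets them. Members below 0 numbered 55, 55 and 56 of 68 on invasive replicates 2, 3 and 4, and 23, 20 and 24 on replicates 1, 5 and 6. Of all genes, 48.0%, 51.1% and 50.4% lay below 0 on the former and 50.6%, 48.3% and 49.4% on the latter.

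Both subunits showed the same split. The large subunit had medians of -0.26, -0.26 and -0.29 on invasive replicates 2, 3 and 4 and of 0.08, 0.15 and 0.12 on replicates 1, 5 and 6. The small subunit had medians of -0.31, -0.22 and -0.21 on the former and 0.13, 0.10 and 0.22 on the latter. Of the 68 members, 64 had their lowest invasive value on replicate 2, 3 or 4, with 22, 23 and 19 members each, and 65 had their highest on replicate 1, 5 or 6, with 23, 13 and 29. The replicates were sorted by the medians of these same genes, so the subunit medians and these counts restate the split and do not test it. No share over all genes is given beside the counts of lowest and highest values. Other genes with TOP mRNAs, from a list of elongation factors and similar genes, had medians of -0.21, -0.26 and -0.18 on replicates 2, 3 and 4, and of -0.12, 0.13 and 0.14 on replicates 1, 5 and 6. Mitochondrial ribosomal protein genes (47 measured), whose products serve the separate ribosome of that organelle, had medians of -0.22, -0.30 and -0.26 on replicates 1, 5 and 6 and of -0.21, 0.02 and -0.31 on replicates 2, 3 and 4. Macrophage markers had medians of 2.93, 2.71 and 3.16 on replicates 1, 5 and 6 and of 2.81, 1.06 and 3.01 on replicates 2, 3 and 4. Cell cycle medians were 0.28, 0.97 and 1.23 against 1.06, 2.29 and 1.30 on the same arrays, smooth muscle medians were -1.26, -2.45 and -4.00 against -3.70, -0.53 and -1.87, and epithelial medians were -0.80, -0.83 and -1.44 against -0.73, -0.01 and -0.33. Their part in the spread of the ribosomal protein genes was not tested. The labels give no batch, and these replicates were not treated as separate groups.

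**Figure D3:**
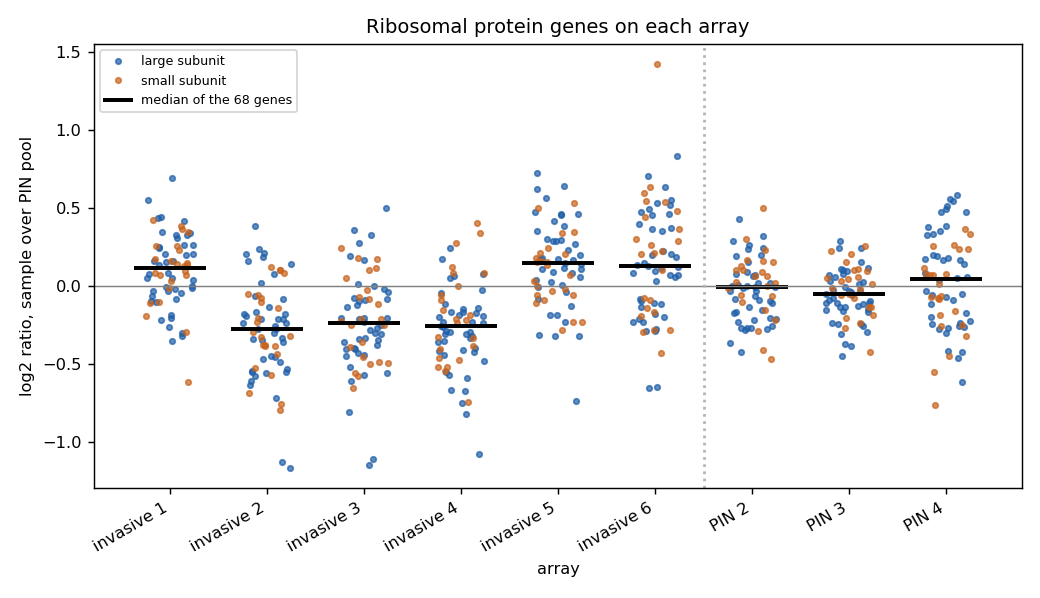
Log2 ratio to the PIN pool of every ribosomal protein gene on each of the 9 arrays, with the median of each array. The invasive medians lie between -0.28 and 0.14, with replicates 2, 3 and 4 below 0 and replicates 1, 5 and 6 above it, and the PIN medians lie between -0.05 and 0.05.

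The stalk proteins Rplp0, Rplp1 and Rplp2 form the flexible arm of the large subunit that recruits elongation factors, with Rplp0 as the base that binds pairs of the acidic proteins Rplp1 and Rplp2. Rplp1 had ratios of -1.13, -1.15 and -1.08 on invasive replicates 2, 3 and 4 and of -0.20, -0.19 and -0.09 on replicates 1, 5 and 6. Its ratios were -0.00, -0.11 and 0.58 on PIN replicates 2, 3 and 4. The highest invasive array lay just above the lowest PIN array, so the groups overlapped by a narrow margin. The difference was -0.80 (SE 0.30, 95% interval -1.46 to -0.13, n = 6 and 3, limma adjusted p = 0.233) and did not pass the test. Its 3 clones gave differences of -0.83, -0.80 and -0.76. Without PIN replicate 4, the array on which it was highest, the gene's difference remained below 0, and over all single arrays left out it lay between -0.93 and -0.58.

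Rplp2 had a lowest invasive ratio of -1.16, a median of -0.13 and a highest of 0.12, and PIN ratios of -0.28, 0.03 and 0.56. The low value came from replicate 2, the groups overlapped, and the difference was -0.44 (SE 0.30, 95% interval -1.10 to 0.21, limma adjusted p = 0.544), or -0.22 without PIN replicate 4. Rplp0, often used as a reference gene for quantitative PCR, ran from -0.81 on invasive replicate 3 through a median of -0.15 to 0.62 on replicate 5, and its PIN ratios were -0.22, -0.30 and 0.51. Its invasive arrays spanned the PIN arrays on both sides. The difference was -0.05 (SE 0.32, 95% interval -0.75 to 0.65, limma adjusted p = 0.967), with 4 clones between -0.31 and 0.13. Its sign was not stable, since the difference was 0.21 without PIN replicate 4 and 0.10 without invasive replicate 3. All 3 stalk genes were highest in PIN on replicate 4.

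**Figure D4:**
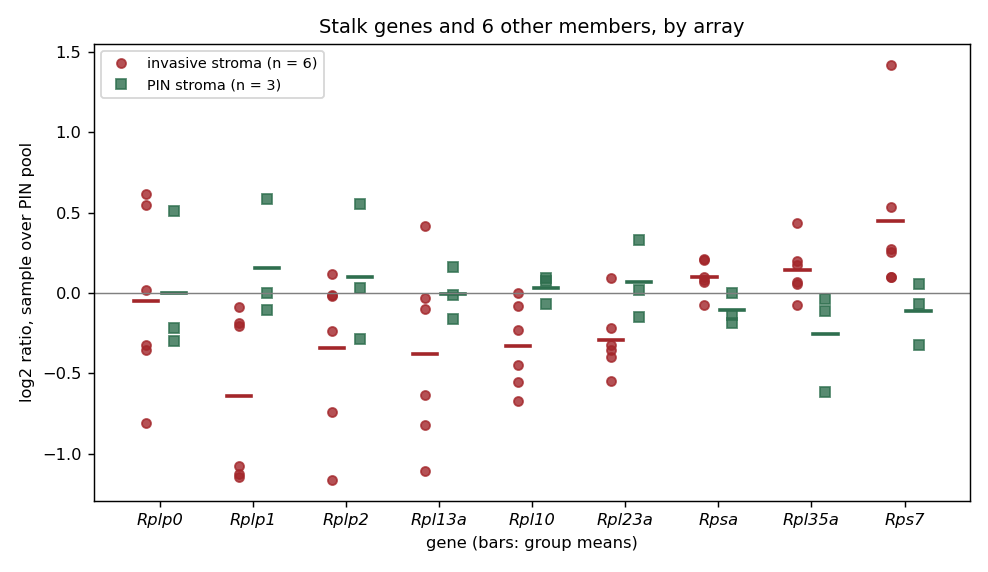
Log2 ratio to the PIN pool on each invasive and PIN array for the stalk genes and 6 other members, with group means as bars. Rplp1 shows 3 invasive arrays near -1.1 and 3 between -0.20 and -0.09, and Rps7 shows all 6 invasive arrays above the 3 PIN arrays.

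Among the other large subunit genes below 0, Rpl13a is a surface protein that can leave the ribosome to silence certain inflammatory mRNAs. Its invasive ratios had a lowest value of -1.11, a median of -0.37 and a highest of 0.42, the widest spread among the members (SD 0.57), and its PIN ratios were -0.01, -0.16 and 0.16. The invasive arrays lay on both sides of the PIN arrays, and the difference was -0.38 (SE 0.31, limma adjusted p = 0.631). Rpl10, added last as the large subunit matures and needed for subunit joining, ranged from -0.67 through a median of -0.34 to 0.00 on invasive arrays and had 0.08, 0.10 and -0.07 on PIN arrays. Only the highest invasive array reached into the PIN range. Its difference was -0.37 (SE 0.20, 95% interval -0.80 to 0.07, limma adjusted p = 0.422), and its 7 clones were all below 0, from -0.46 to -0.17.

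Rpl23a, which sits at the exit where the new chain leaves the ribosome, ranged from -0.55 through -0.34 to 0.10 on invasive arrays and had 0.02, -0.15 and 0.33 on PIN arrays. Most invasive arrays lay below the PIN arrays, with overlap, and the difference was -0.36 (SE 0.20, limma adjusted p = 0.426), or -0.23 without PIN replicate 4. Rpl10a, of the mobile arm beside the site where spent tRNA leaves, had a difference of -0.31 (adjusted p = 0.585), and Rpl41, a very short peptide between the subunits, one of -0.24 (adjusted p = 0.708). These values were -0.20 and -0.04 without PIN replicate 4. Over the 9 genes of the exit tunnel and exit port, all measured, none was called and the median difference was -0.09.

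Above 0 in the large subunit, Rpl35a had invasive ratios from -0.08 through a median of 0.12 to 0.43 and PIN ratios of -0.11, -0.04 and -0.61. Only its lowest invasive array lay within the PIN range. The difference was 0.40 (1.32-fold, SE 0.20, 95% interval -0.03 to 0.82, limma adjusted p = 0.367), on 1 clone, or 0.22 without PIN replicate 4. Rpl31, at the exit port, had 0.22 (adjusted p = 0.727), Rpl17, of the exit tunnel, had 0.22 (adjusted p = 0.706), and Rpl34 had 0.21 (adjusted p = 0.742). Without PIN replicate 4 the value of Rpl31 was 0.05. Rpl5 and Rpl11 travel with the smallest RNA of the large subunit and bind Mdm2 when ribosome assembly is disturbed. Rpl5 had a difference of 0.19 (adjusted p = 0.776) with all 6 clones above 0, from 0.03 to 0.34, and Rpl11 had -0.01 (adjusted p = 0.987). Without PIN replicate 4 the values of Rpl5 and Rpl11 were 0.13 and 0.26.

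In the small subunit, Rps7, a protein of the subunit's body, was the only member of the 68 whose groups did not overlap, against 7.85% of all genes. In it the invasive arrays lay above, as in 4.86% of all genes, and no member had them all below, against 2.99%. Its invasive ratios had a lowest value of 0.10, a median of 0.26 and a highest of 1.42, and its PIN ratios were -0.07, 0.05 and -0.32. The highest value, on invasive replicate 6, stood far from the rest. The difference was 0.56 (1.47-fold, SE 0.28, 95% interval -0.05 to 1.17, limma adjusted p = 0.376), on 1 clone, and it lay between 0.37 and 0.64 when single arrays were left out.

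Rpsa is part of the small subunit and was first described as a laminin receptor precursor. On the mean of its clones it had the smallest SD across invasive arrays. Its invasive ratios ran from -0.07 through a median of 0.09 to 0.21, with an SD of 0.10, and its PIN ratios were -0.00, -0.13 and -0.18. The groups overlapped through the lowest invasive array. The difference was 0.21 (SE 0.16, limma adjusted p = 0.626), and the differences of all 7 clones lay above 0, from 0.05 to 0.39. Single clones varied more than their mean. On invasive replicate 5, 1 clone read -1.72 and the others read between 0.19 and 0.75. Rps3, at the mRNA entry site, had an SD of 0.13 across invasive arrays, also on the mean of its clones. Its difference was 0.05 (adjusted p = 0.933), or 0.03 without PIN replicate 4.

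Rps6, the subunit's substrate of the S6 kinases, had a difference of -0.06 (adjusted p = 0.943). Rps19, the gene most often mutated in the inherited anemia Diamond-Blackfan syndrome, had -0.18 (adjusted p = 0.784), and Rps26, at the mRNA exit channel, had -0.28 (adjusted p = 0.604). Without PIN replicate 4, Rps6 had -0.10 and Rps26 had -0.18. Rps10, of the subunit's head, had 0.22 (adjusted p = 0.707), but its clones disagreed most among all members, from -0.12 to 0.52. Of 19 Diamond-Blackfan genes fixed as a list, 17 were measured and none was called, with a median difference of -0.05. Of 8 genes of the mRNA channel, 5 were measured and none was called, with a median of -0.03. Rps2 and Rps14 of that list stood only on the rows left out for naming several symbols.

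Paralogs of ribosomal proteins fall under the same symbol rule. Rpl39l, a testis-enriched copy of Rpl39, had a difference of 0.25 (adjusted p = 0.661), Rpl7l1, a nucleolar relative of Rpl7, had 0.10 (adjusted p = 0.885), and Rps27l, a copy of Rps27 induced by p53, had -0.02 (adjusted p = 0.977). Leaving out PIN replicate 4 gave 0.09, 0.25 and 0.10. These 3 were the measured members of a list of 7.

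Clones of a gene are separate spots that read the same labeled RNA on each array. Their spread shows how far a single value can be read, and does not measure the spread between mice. Among the 45 genes with several clones (163 clones), the median range between clones was 0.274 and the largest 0.642, and in 22 genes the clones differed in sign. The pooled SD between clones of a gene was 0.15, and the SD of the 68 gene differences was 0.21. Rpl3, of the peptidyl transferase region, had 10 clones between -0.46 and 0.18. Fitted singly, none of the 186 clones was called by limma, against 2.16% of all clones, 3 had an unadjusted p under 0.05, against 11.9%, and 5 had groups that did not overlap, against 6.25%.

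The rest of the translation pathway was read from lists. Of 44 translation factors 39 were measured and none was called (median difference -0.03). The differences of smallest p were -0.58 for Eif1ax, an initiation factor that helps scan for the start codon (limma adjusted p = 0.226), and 0.55 for Eif1b, a relative of the scanning factor Eif1 (adjusted p = 0.241). Of 20 other TOP genes 15 were measured and none was called (median -0.02), with 0.68 for Npm1, a nucleolar chaperone (adjusted p = 0.219), and -0.62 for Eef1d, a subunit of the elongation factor exchange complex (adjusted p = 0.245). The 47 mitochondrial ribosomal protein genes had a median of -0.17 with 13 above 0, and none was called.

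Among 50 measured of 62 ribosome biogenesis genes, 1 was called (5.64% of all genes were). Polr1b, the second largest subunit of RNA polymerase I, which transcribes ribosomal RNA, had invasive ratios of -0.51, -1.32, -0.19, -0.50, -0.62 and -0.68 and PIN ratios of 0.26, 0.17 and 0.32. All invasive arrays lay below all PIN arrays, and it fell by 0.88 on the log2 scale (SE 0.23, limma adjusted p = 0.0911), above the stricter threshold of 0.05. The call was lost without invasive replicate 4 (adjusted p = 0.151) or 5 (0.153) and without PIN replicate 2 (0.285), 3 (0.238) or 4 (0.168). The list's median was 0.02.

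Among 15 measured of 22 Myc, mTOR and S6 kinase genes, 1 was called, a share of 6.67% near the 5.64% of all genes. Rptor, the scaffold that brings substrates to mTOR complex 1, had invasive ratios of 0.65, 1.14, 2.06, 1.40, 1.23 and 1.27 and PIN ratios of -0.09, -0.03 and 0.19. The groups did not overlap, with the invasive arrays above, and Rptor rose 2.41-fold (difference 1.27, SE 0.26, limma adjusted p = 0.0469), on 1 clone. With single arrays left out, the limma adjusted p stayed under 0.05 only without invasive replicate 1 (0.0302) or 3 (0.0133). The call at 0.15 was lost without PIN replicate 2 (adjusted p = 0.199) or 3 (0.171). The list's median difference was 0.16.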

How the data were processed

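Spotted cDNA arrays of laser-microdissected stroma were used, 1 per mouse, from 6 invasive and 3 PIN samples. The deposited values are log2 ratios of Cy5 sample over Cy3 PIN pool, which the authors made from amplified RNA with print-tip lowess without subtracting background. The brightness behind a ratio is unknown, since intensities of single spots were not analysed here, and the number of arrays limits precision. Tool versions of the authors are not given in the sources used here. Of 17664 rows, 457 held no value. Clones were named from the platform annotation: 12563 rows had 1 symbol, 412 several and 4689 none, and the 12 rows that named a member among several symbols were left out. Where several clones carried a symbol, their mean was taken on each array. A gene needed values on 4 or more invasive and 2 or more PIN arrays. Groups were compared by the two-sided moderated test of limma 3.58.1 (R 4.3.3), with Benjamini-Hochberg adjustment over all genes, and a gene was called at an adjusted p under 0.15, the study's false discovery rate, with 0.05 beside it. The script was tested on simulated data. Figures used Python 3.11.15, pandas 2.3.3, numpy 2.4.6 and matplotlib 3.10.9.

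The members and lists were chosen with earlier results of these data known. Named were the 8 members of largest difference in each direction, a fixed set of stalk, assembly and signaling members, the paralogs, members whose groups did not overlap, and in each other list up to 3 called genes or the 2 of smallest p. Rpl3, and members called only under an alternative (Rpl14, Rpl28 and Rps24), were named after their values were seen. Same-numbered arrays came from different mice. Alternatives were other tests, array weights, scalings, filters, clone summaries, the pool as the control, the replicate block and leaving out each array. RefSeq windows carry the build GRCm38.p6, and no build was used for the array.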

Additional observations from a re-analysis of the deposited data

Results flagged for a closer look

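In 2 of 24 named members, 1 of the 6 invasive arrays lay far from the other 5 by Dixon's test, which chance gives in about 1 in 20 groups. Rps7 had a log2 ratio of 1.42 on invasive replicate 6 and 0.10 to 0.53 on the others. Rps27l had -0.62 on invasive replicate 1 and -0.08 to 0.24 on the others.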

How the results depend on the processing

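Of 528 comparisons of a named member with an alternative, 497 kept direction and side of the threshold, 7 came to pass it and 24 changed sign, none of them called. With the invasive arrays set against 0, the pool, 3 members were called higher (Rpl28, Rpl31 and Rps7) and 5 lower (Rpl10, Rpl14, Rpl23a, Rplp1 and Rps24), where 32% of all genes were called, and Rps10 turned to -0.16, Rpl34 to -0.060 and Rpl7l1 to -0.0014. That fit leaves out the spread of the PIN samples. With array weights, 2 members were called lower, Rpl10 at -0.46 (limma adjusted p = 0.133) and Rplp1 at -0.71 (adjusted p = 0.105), where 20.8% of all genes were called, and Rplp0 turned to 0.12, Rpl11 to 0.10 and Rps27l to 0.066. Rpl11 was 0.033 with arrays scaled to equal median size and 0.012 after quantile normalization. With single arrays left out, Rpl11 lay between -0.17 and 0.26, Rplp0 between -0.20 and 0.21 and Rps27l between -0.13 and 0.099, each highest without PIN replicate 4, and Rps6 between -0.17 and 0.035. Leaving out 1 array at a time gave a median difference of the members between -0.10 and -0.01 and called 0 members either way, while all genes called ranged from 37 without PIN replicate 2 to 896 without invasive replicate 3. Welch's test called 207 of all genes, the equal-variance test 54, and a threshold of 0.05 called 76. The replicate block drew only on replicates 2, 3 and 4, called 90 genes and no member, and gave a median of -0.25, with Rpl17 at -0.019, Rpl31 at -0.0042, Rpl34 at -0.091, Rpl5 at -0.076, Rps3 at -0.063 and Rps27l at 0.12. Same-numbered arrays did not deviate together (r = -0.08, -0.10 and -0.02). Giving rows with several symbols to members could not be run, since 0 such rows held only member symbols. The cause of these changes was not tested.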
